A study of Mus musculus with 79 samples.

Results

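Transcript levels of 10 genes that carry the insulin signal to glucose uptake were followed in mouse muscle through the day, in 2 muscle-specific knockouts. The genes were taken by name, not by their values. They are the insulin receptor Insr, its substrates Irs1 and Irs2, the kinase subunit Pik3r1, the kinase Akt2, the Rab regulators Tbc1d1 and Tbc1d4, the glucose transporters Slc2a4 and Slc2a1, and the uptake inhibitor Txnip. All 10 were found among the 14253 genes of the RORA tables and among the 12952 genes of the PER2 tables. The RORA set holds 18 knockout (MKO) and 18 control (CTRL) libraries, 3 of each at each of 6 zeitgeber times (ZT, hours after lights on), every 4 h from ZT0 to ZT20. The PER2 set holds 24 MKO libraries, 4 at each ZT, and 19 CTRL libraries, 3 at each ZT but 4 at ZT20. Each of the 79 libraries came from its own mouse by the design text. CTRL mice are labelled WT in both sets, so the loss of the gene and other differences between MKO and WT mice cannot be told apart. The sources used here do not give the promoter that drives deletion, the muscle taken, or the age and sex of the mice.

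Insulin binding activates its receptor, which phosphorylates the IRS docking proteins, and these recruit the lipid kinase PI3K. PI3K activity leads to activation of AKT2, which phosphorylates TBC1D4 and TBC1D1, Rab GTPase-activating proteins that hold vesicles of the transporter GLUT4 inside the cell. Once they are phosphorylated, GLUT4 moves to the plasma membrane, and muscle takes up glucose from blood. RORα, encoded by Rora, and PER2 belong to the circadian clock, RORα as a nuclear receptor that activates Arntl (BMAL1) and PER2 as a repressor of CLOCK and BMAL1, which bind E-boxes.

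Promoter sequences are shown first for the genes whose start carries a motif of the clock or of sugar sensing. RefSeq promoters on GRCm38.p6 were at hand for 8 of the 10 genes, as 13 entries, and Slc2a4 and Insr had none. In the 250 bases before each start, the E-box CACGTG (both strands, a palindrome) was found in 2 of the 13 entries, in Irs1 and in Irs2, against 6.02% of all 32851 promoters. The ROR half-site AGGTCA (both strands) was found in 0 of the 13 entries, against 14.0% of all promoters. The pair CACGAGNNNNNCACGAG (both strands), which has the spacing of the sugar response element that the MLX partners MLXIP and MLXIPL bind, was found in Txnip and in no other promoter, 0.00304% of them. For the sugar response element only these exact letters were searched, so other forms of it in other promoters were not counted. The share therefore does not show that Txnip alone carries such an element. A match is a description of the letters, not a measured binding site. The lines give the strand of each gene, 5′ to 3′, with the motif in capitals. Irs1 is chr1:82291440-82291689 (minus strand, E-box at -115 to -110 from the start). Irs2 is chr8:11008930-11009179 (minus strand, E-box at -44 to -39), and the stretch of Txnip is chr3:96557852-96557908 (plus strand, motif at -85 to -69).
Irs1: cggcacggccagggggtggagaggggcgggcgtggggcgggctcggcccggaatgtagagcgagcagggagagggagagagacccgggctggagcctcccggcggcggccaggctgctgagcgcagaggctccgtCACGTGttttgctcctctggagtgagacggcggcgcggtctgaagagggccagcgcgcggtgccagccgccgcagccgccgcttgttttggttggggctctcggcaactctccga
Irs2: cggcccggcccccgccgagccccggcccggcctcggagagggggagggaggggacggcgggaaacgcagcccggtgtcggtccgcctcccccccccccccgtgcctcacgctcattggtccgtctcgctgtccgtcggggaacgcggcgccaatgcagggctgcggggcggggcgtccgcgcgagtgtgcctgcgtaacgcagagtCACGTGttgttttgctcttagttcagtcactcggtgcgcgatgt
Txnip: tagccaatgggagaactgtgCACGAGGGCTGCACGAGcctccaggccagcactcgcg

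The values come from 12 deposited tables, in which the authors set MKO against CTRL, a table for each knockout and ZT. Single libraries were not analysed here, and their depth is unknown. RORA log2 fold changes are MKO over CTRL, and positive means higher in the knockout. For the PER2 tables the direction is not stated, so those values are called positive or negative as deposited. A gene was called where the adjusted p (Benjamini-Hochberg over all genes) was under 0.05. A mean ± SD is over the 6 ZT, so the SD includes variation with the time of day as well as error. It is unweighted, as is the percent change of a mean. The RORA p of a mean tests the inverse-variance weighted mean, which can differ in size. For Tbc1d1 the weighted mean was 0.39 (unweighted 0.41), and for Irs2 -0.19 (unweighted -0.22). Rora itself fell by 1.78 ± 0.15 in RORA MKO. Per2 had a mean of 0.37 ± 0.29 in the PER2 set, between -0.16 and 0.70, which does not settle the direction. The labelled tissue was checked on 10 fast fibre genes, which in the RORA set had mean normalized counts from 21890 (Myoz1) to 792700 (Myh4).

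In RORA MKO, 8 of the 10 genes differed from CTRL in their mean over the day, with means between -0.22 (Irs2) and 0.41 (Tbc1d1). Slc2a4, Akt2 and Tbc1d1 rose, and Slc2a1, Insr, Irs2, Tbc1d4 and Pik3r1 fell, while the means of Irs1 and Txnip did not pass the test (inverse-variance mean, Benjamini-Hochberg). That test leaves out the spread between ZT beyond the errors. With limma on the 6 fold changes, which takes in that spread, 4 were called: Slc2a4, Akt2, Tbc1d1 and Irs2. Among all genes 38.2% passed that test, 18.9% higher and 19.3% lower, against 3 higher and 5 lower of these 10. The median of the 10 means was -0.07, beside 0.00433 for all genes. The median size of the mean, without its sign, was 0.116 for the 10 genes and 0.0591 for all genes. All 10 genes lay above a floor of 50 mean normalized counts, whereas these shares and medians over all genes include genes below it. Above that floor 5131 genes passed, where 9297 annotated genes lay, so the share among genes at such levels was above 38.2%. By the inverse-variance test, single genes of the pathway thus moved in both directions, the insulin receptor and one of its substrates down, and the muscle glucose transporter up.

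By time of day, the authors' deposited RORA tables called 5 of the 10 genes at ZT0 (28.1% of all genes), 4 at ZT4 (29.0%) and 5 at ZT8 (27.8%). Later in the day these deposited tables called 6 at ZT12 (22.1%), 5 at ZT16 (20.7%) and 6 at ZT20 (32.2%). Each of the 10 genes was called at 1 ZT or more, and none at all 6. Of the 60 gene and ZT pairs, 31 were called, and 39 had an unadjusted p under 0.05. By Cochran's Q, Insr, Irs1, Irs2, Pik3r1 and Tbc1d1 had an effect that changed over the day, 5 of the 10 genes beside 11.0% of all genes. Above the floor of 50 mean normalized counts 1641 genes passed it, where 9297 annotated genes lay, so there the share was above 11.0%. The shares called at each ZT likewise include genes below that floor. Without ZT0 and ZT20, a setting chosen after seeing the data, 7 of the 10 genes had a passed RORA mean and 4 a passed change with ZT. RORA fold changes behave as shrunken values, and shrinkage may differ between ZT.

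**Figure D1:**
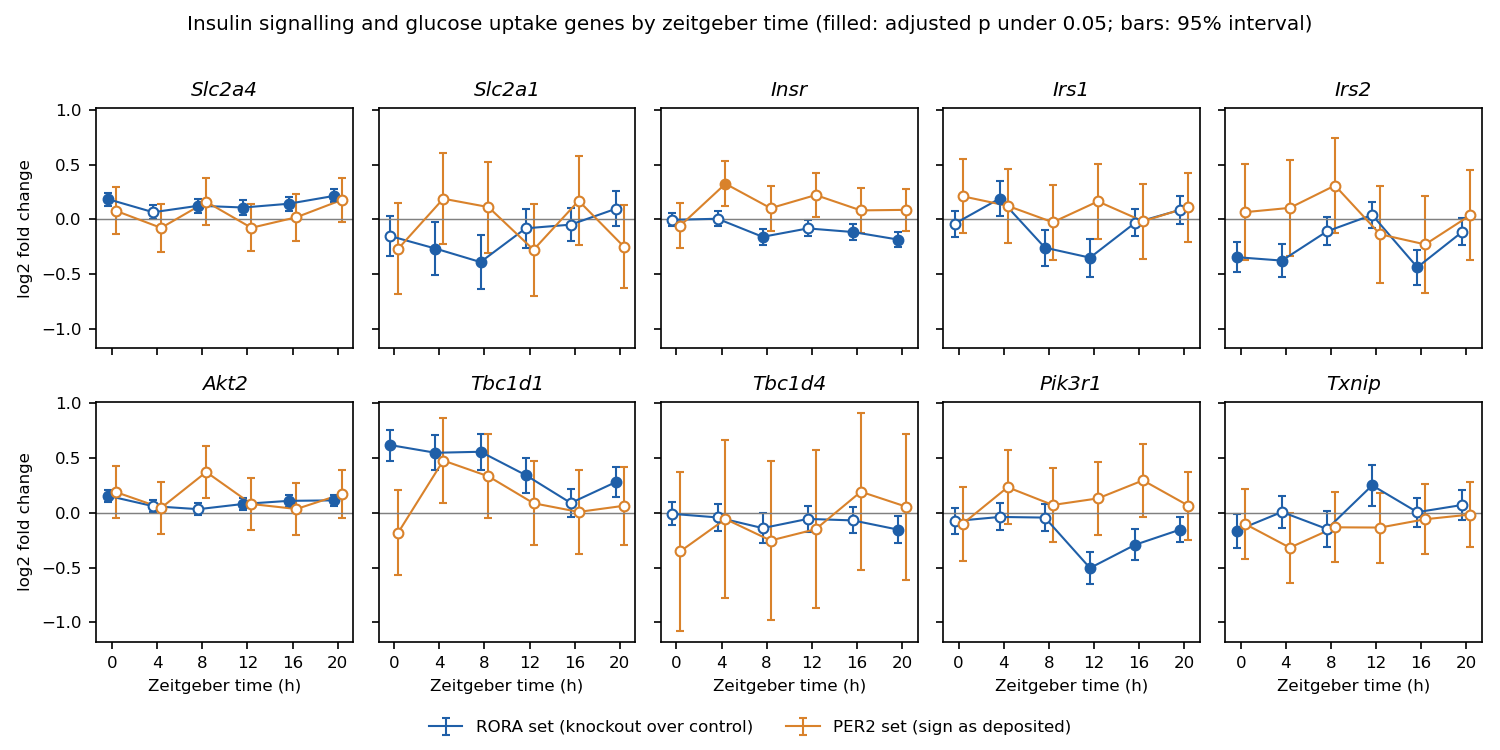
Deposited log2 fold change (y axis) of each of the 10 genes by zeitgeber time in hours (x axis), RORA set in blue (knockout over control) and PER2 set in orange (sign as deposited), with 95% intervals and filled points for adjusted p under 0.05. Tbc1d1 lies above 0 at every RORA time, from 0.09 at ZT16 to 0.62 at ZT0, and Pik3r1 falls furthest at ZT12, to -0.50.

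The insulin receptor gene Insr (ENSMUSG00000005534) was lower in RORA MKO in the later part of the sampled day. From ZT0 to ZT20, in time order, the authors' deposited tables give Insr as -0.00498, 0.00482, -0.16, -0.08, -0.12 and -0.19. The first pair of times lay at 0 within their errors of 0.0297 and 0.0356, and the calls were at ZT8 (adjusted p 6.03e-05), ZT16 (0.0036) and ZT20 (1.48e-07), deposited Benjamini-Hochberg values. On the mean, -0.09 ± 0.08, Insr fell by 6.11%, with an adjusted p of 1.36e-08 (inverse-variance mean, Benjamini-Hochberg) and a negative value at 5 of 6 ZT. The change with ZT had an adjusted p of 0.00141 by Cochran's Q. The mean did not pass with limma on the 6 fold changes (adjusted p 0.0613). The change with ZT did not pass with a 24 h cosine (adjusted p 0.0686), with the trend of fold change on transcript length and GC content removed (0.0833), or without ZT0 and ZT20 (0.111), all Benjamini-Hochberg.

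Irs1 (ENSMUSG00000055980), a docking protein that the receptor phosphorylates, was higher at one time of day and lower at others. Its 6 log2 fold changes in the authors' deposited tables, from ZT0 to ZT20, were -0.04, 0.19, -0.26, -0.35, -0.03 and 0.09. Calls were at ZT4 (adjusted p 0.0137), ZT8 (0.00131) and ZT12 (1.95e-05), deposited Benjamini-Hochberg values. The called values had both signs: Irs1 rose by 14.1% at ZT4 and fell by 21.6% at ZT12. The mean of -0.07 ± 0.20 did not pass (adjusted p 0.278, inverse-variance mean, Benjamini-Hochberg), while the change with ZT did (adjusted p 0.000351 by Cochran's Q). The mean passed by Stouffer's sum of z values (adjusted p 0.0437) and without ZT4 (adjusted p 0.0368), both Benjamini-Hochberg.

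Irs2 (ENSMUSG00000038894), a docking protein related to Irs1, was lower in RORA MKO at other hours than Irs1. For Irs2 the authors' deposited tables give -0.35, -0.38, -0.11, 0.04, -0.44 and -0.11 from ZT0 to ZT20. The called falls lay at ZT0 (adjusted p 2.24e-07), ZT4 (2.19e-07) and ZT16 (1.76e-08, deposited Benjamini-Hochberg values), where Irs1 was not called lower, and at ZT12 Irs2 was within its error of 0 (0.04, error 0.0621) while Irs1 fell. On the mean, -0.22 ± 0.19, Irs2 fell by 14.4%, and it was negative at 5 of 6 ZT (adjusted p 3.41e-11, inverse-variance mean, Benjamini-Hochberg). The change with ZT had an adjusted p of 3.5e-05 by Cochran's Q and of 0.05 with a 24 h cosine, which did not pass. With the length and GC trend removed, Irs2 was also called at ZT20 (-0.18, adjusted p 0.00825, Benjamini-Hochberg). The difference in timing between Irs1 and Irs2 was not tested as such.

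Pik3r1 (ENSMUSG00000041417) encodes the p85α regulatory subunit that couples PI3K to the docking proteins, and its largest fall was at ZT12. Pik3r1 stood, from ZT0 to ZT20 in the authors' deposited tables, at -0.07, -0.04, -0.04, -0.50, -0.29 and -0.15. The first 3 times were not called, and the later 3 were, at ZT12 (adjusted p 2.66e-12), ZT16 (1.85e-05) and ZT20 (0.0132), deposited Benjamini-Hochberg values. At ZT12 Pik3r1 fell by 29.4%. The call at ZT20 was lost with the trend on transcript length and GC content removed (-0.09, adjusted p 0.138, Benjamini-Hochberg), a trend that at this ZT took 9.02% of the variance of RORA fold changes. The mean was -0.18 ± 0.18, negative at 6 of 6 ZT (adjusted p 4.89e-09, inverse-variance mean, Benjamini-Hochberg, and 0.0615 with limma). The change with ZT (adjusted p 0.000106, Cochran's Q) rested on ZT12, without which its adjusted p was 0.221.

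Akt2 (ENSMUSG00000004056), the AKT kinase known for insulin-stimulated glucose uptake, was slightly higher in RORA MKO at all 6 ZT. Its log2 fold changes in the authors' deposited tables ran 0.16, 0.06, 0.03, 0.08, 0.11 and 0.12 from ZT0 to ZT20. The 4 calls lay at ZT0 (adjusted p 1.71e-08), ZT12 (0.0173), ZT16 (0.00058) and ZT20 (7.58e-05), deposited Benjamini-Hochberg values. With the trend on transcript length and GC content removed, the calls at ZT12 (0.06, adjusted p 0.132) and ZT20 (0.05, adjusted p 0.116) were lost, and the weighted mean of Akt2 went from 0.0964 to 0.0631, still called (3.02e-07), all Benjamini-Hochberg. Over the day the mean was 0.09 ± 0.04, a rise of 6.7%, with an adjusted p of 8.79e-16 (inverse-variance mean, Benjamini-Hochberg), and a change with ZT did not pass (adjusted p 0.188, Cochran's Q).

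Tbc1d1 (ENSMUSG00000029174), which encodes a Rab GTPase-activating protein that both AKT and AMPK phosphorylate in muscle, had the largest mean of the 10 genes in size. Tbc1d1 had log2 fold changes of 0.62, 0.55, 0.56, 0.35, 0.09 and 0.28 from ZT0 to ZT20 in the authors' deposited tables. The highest 3 values were those of ZT0, ZT4 and ZT8, with deposited Benjamini-Hochberg adjusted p of 3.65e-18, 6.39e-12 and 3.66e-12, and ZT12 (6.77e-06) and ZT20 (2.42e-05) were called too. The rise was 53.7% at ZT0 and 6.53% at ZT16, the one ZT without a call (adjusted p 0.203, deposited). The mean was 0.41 ± 0.20, a rise of 32.7%, positive at 6 of 6 ZT (adjusted p 1.28e-35, inverse-variance mean, Benjamini-Hochberg). The change with ZT had an adjusted p of 8.6e-06 by Cochran's Q.

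Tbc1d4 (ENSMUSG00000033083), the related Rab GTPase-activating protein and a classical AKT substrate, was slightly lower. From ZT0 to ZT20 the authors' deposited values of Tbc1d4 were -0.00816, -0.04, -0.14, -0.05, -0.07 and -0.15, with a call at ZT20 (adjusted p 0.0191, deposited Benjamini-Hochberg value). All 6 values were negative, with errors from 0.0532 to 0.0687. On the mean, -0.08 ± 0.06, Tbc1d4 fell by 5.19%, with an adjusted p of 0.013 (inverse-variance mean, Benjamini-Hochberg) and no passed change with ZT (adjusted p 0.956, Cochran's Q). The call on the mean was lost without ZT8 (adjusted p 0.0613), without ZT20 (0.107), without both ZT0 and ZT20 (0.0688) and with limma (0.0548). With the length and GC trend removed, Tbc1d4 was also called at ZT8 (-0.15, adjusted p 0.0425, Benjamini-Hochberg). The 2 relatives thus had means of opposite sign.

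Slc2a4 (ENSMUSG00000018566) encodes GLUT4, the transporter that insulin and contraction bring to the muscle surface. The authors' deposited log2 fold changes of Slc2a4 were 0.18, 0.06, 0.12, 0.11, 0.14 and 0.21 from ZT0 to ZT20. It was above 0 at all 6 ZT and called at 5, all but ZT4, with the smallest deposited Benjamini-Hochberg adjusted p at ZT20 (6.2e-12) and ZT0 (4.33e-09) and the largest at ZT12 (0.00383). The mean was 0.14 ± 0.05, a rise of 10.1%, with a weighted mean of 0.14 and a 95% interval of 0.12 to 0.17 (adjusted p 2.83e-26, inverse-variance mean, Benjamini-Hochberg). A change with ZT did not pass by Cochran's Q on the log2 values (adjusted p 0.0963) and passed on z values (adjusted p 0.018).

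Slc2a1 (ENSMUSG00000028645) encodes GLUT1, a transporter of basal glucose uptake that endothelial cells also carry. Slc2a1 was at -0.15, -0.27, -0.39, -0.08, -0.05 and 0.10 from ZT0 to ZT20 in the authors' deposited tables, and called at ZT4 (adjusted p 0.00861) and ZT8 (0.000269), deposited Benjamini-Hochberg values. At ZT8 Slc2a1 fell by 23.7%, with errors from 0.077 to 0.125 over the 6 ZT. The mean was -0.14 ± 0.17, and the weighted mean was -0.09, with an adjusted p of 0.0371 (inverse-variance mean, Benjamini-Hochberg). That call was lost without ZT0 (adjusted p 0.122), ZT4 (0.142), ZT8 (0.242) or ZT12 (0.058), and with limma (0.109). With the length and GC trend removed, Slc2a1 was also called at ZT0 (-0.18, adjusted p 0.0362, Benjamini-Hochberg). Slc2a1 had the lowest level of the 10 genes, a mean normalized count of 85.4. Of the 10 endothelial marker genes 9 rose in RORA MKO (median of the means 0.16), while Slc2a1 fell. Their part in the result was not tested.

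Txnip (ENSMUSG00000038393), an arrestin-like protein that sugar induces and that lowers glucose uptake by drawing transporters off the surface, had no passed mean. Its values from ZT0 to ZT20 in the authors' deposited tables were -0.16, 0.00907, -0.15, 0.25, 0.00736 and 0.07. The 2 called values had opposite signs: Txnip fell by 10.5% at ZT0 (adjusted p 0.0345) and rose by 19.1% at ZT12 (adjusted p 0.00292), both deposited Benjamini-Hochberg values. The mean was 0.00591 ± 0.15, with a weighted mean of -0.000699 and a 95% interval of -0.06 to 0.06 (adjusted p 0.993, inverse-variance mean, Benjamini-Hochberg). The change with ZT missed the threshold by Cochran's Q (adjusted p 0.0768), and passed on z values (adjusted p 0.00161) and without ZT16 (adjusted p 0.0479).

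**Figure D2:**
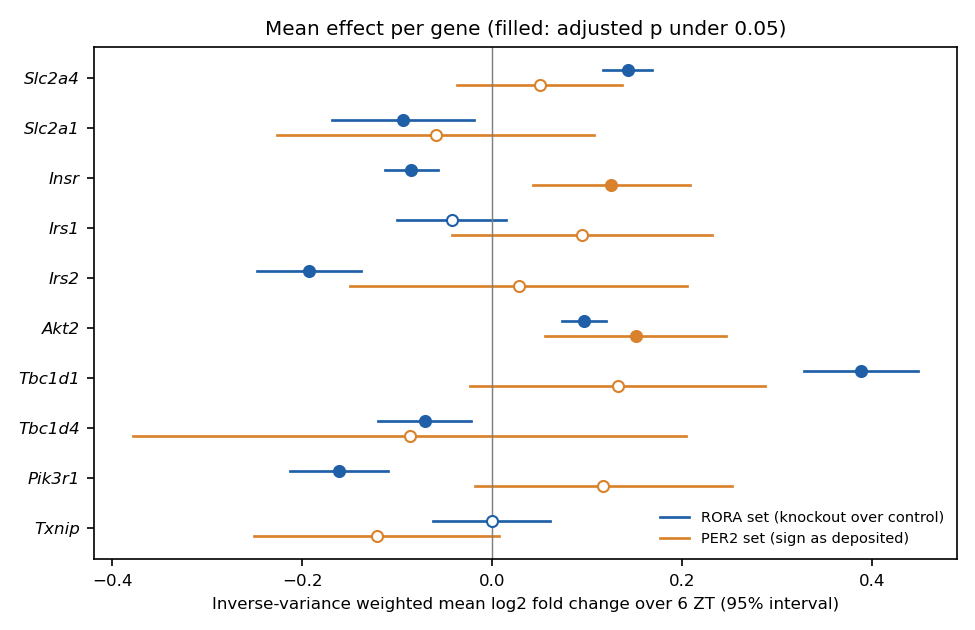
Inverse-variance weighted mean log2 fold change over the 6 ZT (x axis) of each gene (y axis), with 95% intervals, RORA set in blue and PER2 set in orange, filled where the adjusted p is under 0.05. The RORA mean of Tbc1d1 stands at 0.39 (0.33 to 0.45), apart from the other 9, and the PER2 intervals are wider than the RORA intervals for every gene. RORA errors were deposited with fold changes that behave as shrunken values, and PER2 errors were derived, so the widths are not of the same kind.

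Levels set the scale of these changes. Per kb of the longest annotated transcript, the RORA set had mean normalized counts of 2363 for Txnip and 1934 for Slc2a4, then 418 for Akt2 and 184 for Tbc1d1. Insr (114), Irs1 (105), Tbc1d4 (89.0), Pik3r1 (51.8), Irs2 (36.2) and Slc2a1 (26.2) followed on the same scale. In the PER2 set, CPM per kb ran from 192 for Txnip and 139 for Slc2a4 through 48.6 for Akt2, 14.7 for Tbc1d1, 8.82 for Insr and 6.52 for Irs1 down to 5.8 for Tbc1d4 and 4.94 for Pik3r1. The order was the same in both sets but for the last pair, Slc2a1 at 2.0 and Irs2 at 1.53 CPM per kb. GLUT4 transcript was thus more abundant per kb than GLUT1 transcript, and Txnip lay at the level of Slc2a4. Which neighbours differ beyond the spread between mice was not tested, since each table gives 1 mean level for the whole set.

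By the pattern over the 6 RORA comparisons, the genes closest to Tbc1d1 among 9296 others above a floor of 50 mean normalized counts were Tmem131l, with a root mean square difference of 0.0628 on the log2 scale, Pex11a (0.0817) and Aqp4 (0.0823). Tmem131l went from 0.52 at ZT0 through 0.09 at ZT16 to 0.30 at ZT20 in the authors' deposited tables, beside 0.62, 0.09 and 0.28 for Tbc1d1. Among those closest to Irs2 were Zfp462 (0.103) and Sorbs3 (0.12), and closest to Pik3r1 were Pmm1 (0.078), Uhrf1bp1l (0.106) and Rsad1 (0.107). Pmm1 had its lowest value at ZT12, -0.43, as did Pik3r1 at -0.50, both in the authors' deposited tables.

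In the PER2 set, Insr and Akt2 passed the test on the mean over ZT, both with positive values, and the other 8 genes did not (Stouffer's sum, Benjamini-Hochberg). Among all genes 21.6% passed, 10.9% positive and 10.6% negative, against 2 positive and 0 negative of the 10. The median of the 10 means was 0.07, beside -0.02 for all genes, and the median size was 0.106, beside 0.0743. At ZT4 the authors' deposited PER2 table called 1 of the 10 genes, Insr (12.2% of all genes). The authors' deposited calls took 0 of the 10 at ZT0 (2.70% of all genes), ZT8 (1.78%), ZT12 (3.34%), ZT16 (0.811%) and ZT20 (1.52%). Over the 60 gene and ZT pairs 4 had an unadjusted p under 0.05. A change with ZT passed for 0 of the 10 genes (0 at an unadjusted p under 0.05, smallest p 0.158, Cochran's Q), beside 0.0463% of all genes.

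Insr had positive deposited values at 5 of 6 ZT in the PER2 set. The authors' deposited PER2 tables give it as -0.06, 0.32, 0.10, 0.22, 0.08 and 0.09 from ZT0 to ZT20, with a call at ZT4 (adjusted p 0.025, deposited Benjamini-Hochberg value). The mean was 0.13 ± 0.13 (adjusted p 0.0176, Stouffer's sum, Benjamini-Hochberg). The values at ZT4 and ZT12 were the highest, and at these times PER2 fold changes of all genes went with transcript length (Spearman's rho across genes 0.52 and 0.44), with 30.4% and 29.0% of the variance taken by a smooth fit on length and GC content. Insr, with a transcript of 9355 bases, is longer than 96.8% of genes. With that trend removed, Insr was at 0.09 at ZT4 (adjusted p 0.698) and its mean at 0.05 (adjusted p 0.473), both Benjamini-Hochberg. Without ZT4 the adjusted p of the mean was 0.218, without ZT12 it was 0.0984, and without both it was 0.6. Red blood cell markers were negative at the same times, with medians of -1.35 (ZT4) and -1.01 (ZT12) in the authors' deposited PER2 tables. Their part in the result was not tested.

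**Figure D3:**
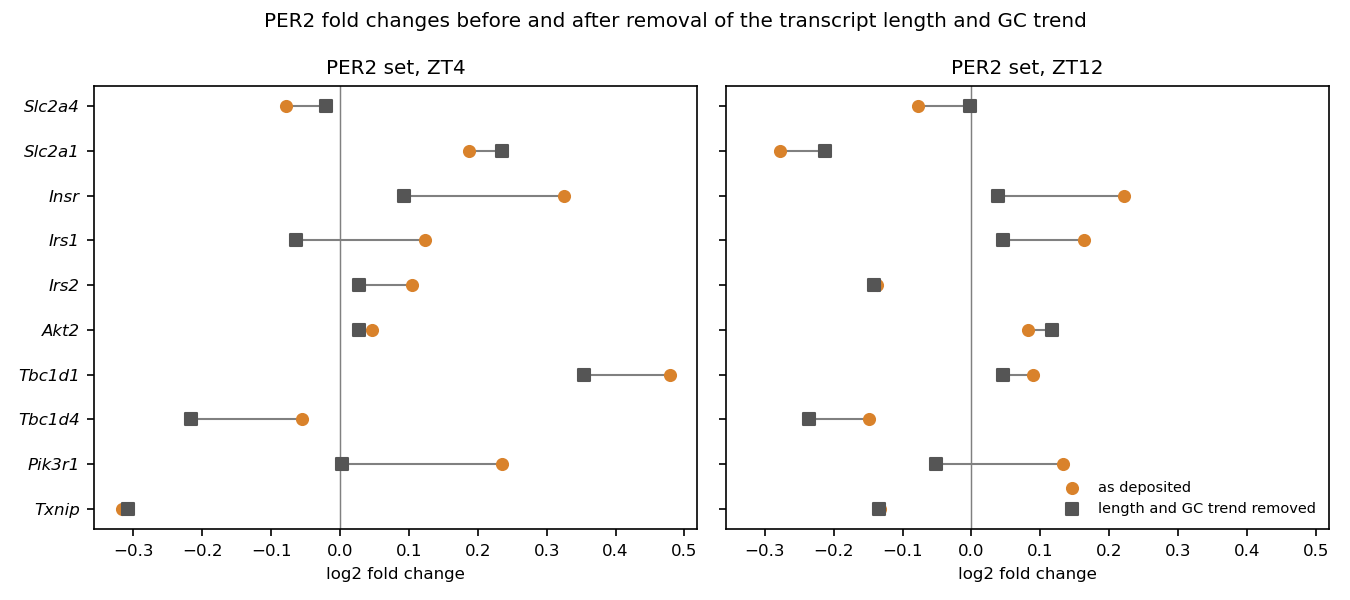
PER2 log2 fold change (x axis, sign as deposited) of each of the 10 genes (y axis) at ZT4 and ZT12, as deposited (orange circles) and with the trend on transcript length and GC content removed (dark squares). Insr moves from 0.32 to 0.09 at ZT4, whereas Txnip, at -0.32 and -0.31, hardly moves.

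Akt2 was the other gene with a passed PER2 mean. Its values in the authors' deposited PER2 tables were 0.19, 0.05, 0.37, 0.08, 0.04 and 0.17 from ZT0 to ZT20, none of them called (smallest adjusted p 0.0788 at ZT8, deposited Benjamini-Hochberg value). All 6 were positive, with a mean of 0.15 ± 0.13 (adjusted p 0.0132, Stouffer's sum, Benjamini-Hochberg). Without ZT8 the adjusted p was 0.154, and with limma 0.116.

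Txnip was negative at 6 of 6 ZT in the PER2 set without passing the test. Txnip stood at -0.10, -0.32, -0.13, -0.13, -0.06 and -0.01 from ZT0 to ZT20 in the authors' deposited PER2 tables. The mean was -0.13 ± 0.10, with a 95% interval of the weighted mean of -0.25 to 0.00680 (adjusted p 0.175, Stouffer's sum, Benjamini-Hochberg).

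For the other 7 genes the PER2 intervals of the weighted mean spanned 0. Tbc1d1 had a mean of 0.13 ± 0.24, from -0.18 at ZT0 to 0.48 at ZT4 in the authors' deposited PER2 tables, with an interval of -0.02 to 0.29. Pik3r1 had a mean of 0.12 ± 0.14 (interval -0.02 to 0.25), with its highest value, 0.30, at ZT16. Irs1 was at 0.09 ± 0.10 (-0.04 to 0.23) and Irs2 at 0.02 ± 0.19 (-0.15 to 0.21). The GLUT4 gene Slc2a4 was at 0.05 ± 0.11 (-0.04 to 0.14), and the GLUT1 gene Slc2a1 at -0.05 ± 0.23 (-0.23 to 0.11). Tbc1d4, at -0.09 ± 0.20 (-0.38 to 0.20), had the widest interval of the 10. A missed threshold does not show that these levels were equal, and each interval gives the sizes that the data allow.

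The effects of the knockouts were compared gene by gene on their weighted means, under both readings of the PER2 sign, and a gene was called only where the larger adjusted p was under 0.05. Tbc1d1 was the 1 gene of 10 that passed, beside 13.3% of the 11429 shared genes. Its RORA mean exceeded the PER2 mean by 0.26 as deposited and by 0.52 with the PER2 sign turned (error 0.0848, larger adjusted p 0.00839, Benjamini-Hochberg). Without ZT0 the larger adjusted p was 0.213. RORA fold changes behave as shrunken values, and PER2 errors were derived in another way, so the compared sizes and errors are not of the same kind. More of the 10 genes passed when z values were compared instead. Insr, Pik3r1 and Irs2 differed between the knockouts with the sign as deposited (adjusted p 1.4e-05, 0.000733 and 0.0492, Benjamini-Hochberg) and not with it turned (0.605, 0.752 and 0.236). Slc2a4 and Akt2 differed with the sign turned (0.000383 and 1.35e-05) and not as deposited (0.0956 and 0.406). For these 5 genes the answer thus depends on which genotype is over which in the PER2 tables. Irs1, Slc2a1, Tbc1d4 and Txnip did not pass under either reading.

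Around the 10 genes, 87 genes of the same pathway in 7 lists were examined for context. In RORA MKO 29 of 86 measured were higher, 24 lower, and 20 changed with ZT, beside 18.9%, 19.3% and 11.0% of all genes. Of 84 measured in the PER2 set, 12 had positive and 8 had negative means past the test, near the shares over all genes of 10.9% and 10.6%. The count of each list stands against the same shares. Each list held 6 to 18 measured genes, and no list's count was tested against these shares, so none is read as particular to its list. The tests were those used for the 10 genes, and the medians of the lists below stand beside medians over all genes of 0.00433 (RORA) and -0.02 (PER2).

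Close to Insr, 3 of 10 receptor adaptors and partners rose in RORA MKO and 0 fell (median 0.05). Grb2, an adaptor to RAS signalling, rose by 0.27 ± 0.07 and Cbl, a ubiquitin ligase, by 0.16 ± 0.13, whereas Insr itself fell. Among PER2 means 1 of 10 passed, Ptpn11, a phosphatase that binds the docking proteins, at 0.23 ± 0.09. Beside Pik3r1 and Akt2, 10 of 18 kinases and downstream genes rose and 6 fell (median 0.05). Rictor, the subunit that defines the mTORC2 complex which phosphorylates AKT, fell by 0.82 ± 0.22, and Pik3ca, the catalytic partner of Pik3r1, rose by 0.29 ± 0.08. Rictor in the PER2 set had a mean of 0.46 ± 0.14 as deposited, one of 3 positive among 18 (median 0.06).

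Among 14 inhibitors of the pathway, 6 rose and 2 fell in RORA MKO (median 0.04), beside 18.9% higher and 19.3% lower over all genes. Grb14, which blocks the receptor's kinase, rose by 0.52 ± 0.11, and Ptpn1, a phosphatase that acts on the receptor, fell by 0.28 ± 0.07. The PER2 means of these 14 were positive for 2 and negative for 2 (median -0.00501). Of 18 genes of GLUT4 vesicle traffic, 5 rose and 7 fell (median -0.00738). Rab10, a Rab that TBC1D4 acts on, fell by 0.23 ± 0.07, and Exoc7, an exocyst subunit, rose by 0.53 ± 0.12. Of 17 measured there, 4 PER2 means were positive and 0 negative (median 0.01), Rab10 among them at 0.19 ± 0.08.

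Beside Slc2a4 and Slc2a1, 1 of 7 other sugar transporters and hexokinases rose and 2 fell in RORA MKO (median 0.03). Slc2a3, the GLUT3 gene, fell by 1.40 ± 0.21 at a mean normalized count of 173, and Hk2, the insulin-responsive hexokinase of muscle, rose by 0.12 ± 0.11. Among PER2 means 2 of 6 were positive and 1 negative (median -0.0083), with Slc2a3 at 0.60 ± 0.31. Beside Txnip, 2 of 10 relatives and sugar sensors rose and 5 fell (median -0.08). Mlxip and Mlxipl, which encode sugar sensors known to act through such elements, fell by 0.29 ± 0.07 and 0.34 ± 0.08, whereas Txnip had no passed mean. Among PER2 means 0 of 10 were positive and 2 negative (median -0.02). Of 9 AMPK pathway genes, which reach Tbc1d1 by another route than insulin, 2 rose and 2 fell (median -0.00569). The AMPK subunit gene Prkag3 fell by 0.26 ± 0.20, and in the PER2 set 0 of 9 were positive and 3 negative (median -0.04).

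**Figure D4:**
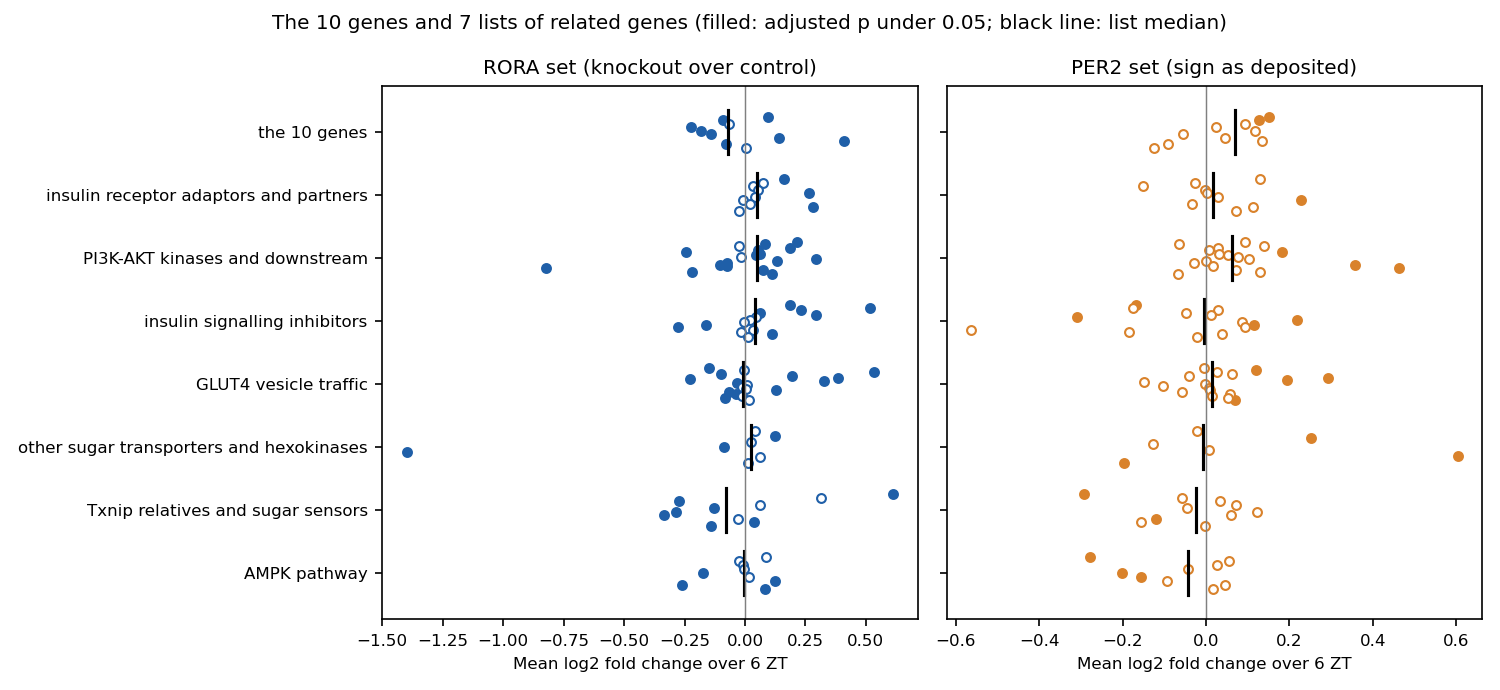
Mean log2 fold change over the 6 ZT (x axis, separate scales for the RORA set in blue and the PER2 set in orange) of the 10 genes and of each gene in the 7 related lists (y axis), 1 point a gene, filled where the adjusted p is under 0.05, with a black line at the list median. List medians lie near 0, while single genes such as Slc2a3 (-1.40) and Rictor (-0.82) in the RORA set stand apart.

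Other cell types were checked through marker lists, since bulk muscle cannot tell fewer cells of a type from less RNA per cell. In the RORA set, slow fibre markers had a median of 0.69 at ZT0 and -0.25 at ZT4, and Schwann cell markers a median of 0.86 at ZT20 and -0.34 at ZT4. White adipocyte markers had a median of -0.50 at ZT0 and 0.44 at ZT20. Over the 6 ZT, 0 of 9 slow fibre and 0 of 8 Schwann cell markers passed on the mean, 1 of 8 macrophage markers rose and 2 of 8 fibroblast markers fell. Of the 4 red blood cell markers measured, 1 rose (median of the means 0.16). Of 8 adipocyte markers 2 rose, Lipe and Car3, named after their values were seen. Car3, which muscle fibres also express, had a mean normalized count of 26848, beside 15.2 (Lep) to 217 (Cfd) for the other 7, and the adipocyte gene Adipoq had a mean of -0.06 ± 0.48 that did not pass. Of 10 fast fibre markers 1 rose and 6 fell (median -0.08). Marker shifts were present at other times too: 6 of 8 Schwann cell and 6 of 9 slow fibre markers were called at ZT4, and 8 of 10 endothelial and 4 of 4 red blood cell markers at ZT8. In the PER2 set 4 of 10 endothelial, 5 of 5 red blood cell, 2 of 8 adipocyte (Lipe and Car3) and 1 of 10 fast fibre markers had negative means past the test, and the other lists had none. The part of these cell types in the values of the 10 genes was not tested.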

How the data were processed

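RNA was measured in 79 libraries of mouse muscle. Total RNA was extracted with TRI-Reagent and RNeasy columns, and stranded mRNA libraries were sequenced on a NextSeq instrument, per the labels' protocols. Tools in the submitters' processing notes are STAR, Trimmomatic, DESeq2 with R 4.1, MultiQC and bcl2fastq 2.20.0.422. Those notes list mm9 and GRCm39 as builds without a role for either. For the read counter and its use of strand, the method is not given in the sources used here. The 12 deposited tables hold comparisons that the authors made, knockout against control. Per the file headers, each RORA table has a signal level (the mean normalized count over the set), log2 fold changes with errors, and p-values, raw and adjusted. These tables set knockout over wild type and kept genes with 10 reads in 3 samples, per the labels. RORA log2 fold changes divided by their deposited errors came to 0.779 times (median) the z value of the p, as shrunken values do, so sizes may be too small. Per the file headers, each PER2 table has log2 fold changes, the log2 of mean CPM, the score of a likelihood ratio test, and p-values, raw and adjusted. CPM values printed were derived from the deposited log2 CPM. PER2 errors were derived by dividing each log2 fold change, without its sign, by the square root of the deposited score. Recomputed Benjamini-Hochberg values differed from the deposited ones by at most 1.3e-14.

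Means over ZT used inverse-variance weights (RORA) or Stouffer's sum (PER2) with a two-sided normal p. Change with ZT used Cochran's Q with 5 degrees of freedom, and the difference between knockouts the weighted means. All p were adjusted over all genes tested (Benjamini-Hochberg). Because the tables hold comparisons, the tests planned for counts per library were not used. Symbols were deposited for 13339 RORA genes, and GENCODE M21 named a further 893. That annotation served for names, transcript length and GC content only, and 12333 PER2 genes matched it. Promoters came from RefSeq on GRCm38.p6. The methods were tested on simulated data. Alternatives were limma 3.58.1 (R 4.3.3), other sums and tests of change, a stricter threshold, removal of the length and GC trend, and leaving out each ZT. Python 3.11.15, NumPy 2.4.6, pandas 2.3.3, SciPy 1.17.1 and matplotlib 3.10.9 were used. The 10 genes, the lists and the tests were chosen with earlier results of these data known. The rule for named genes took the 10 genes, the targeted genes, up to 4 RORA and 2 PER2 genes with the smallest adjusted p of each list, of which the text prints some, and 3 genes of most similar pattern for each of the 3 called genes with the largest RORA means. Of the genes that this rule takes, 2 are not reported here.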

Additional observations from a re-analysis of the deposited data

Results flagged for a closer look

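The RORA effect differed between times of day for 5 of the 10 genes, by a test of the difference between ZT (Cochran's Q, Benjamini-Hochberg over all genes). The adjusted p was 8.6e-06 for Tbc1d1, which ran from 0.09 at ZT16 to 0.62 at ZT0, and 3.5e-05 for Irs2, which ran from -0.44 at ZT16 to 0.04 at ZT12. It was 0.000106 for Pik3r1, from -0.50 at ZT12 to -0.04 at ZT4, and 0.000351 for Irs1, from -0.35 at ZT12 to 0.19 at ZT4. For Insr, from -0.19 at ZT20 to 0.00482 at ZT4, it was 0.00141. The change of Insr did not pass with a 24 h cosine (adjusted p 0.0686) or with the length and GC trend removed (0.0833). That of Pik3r1 did not pass without ZT12 (0.221, Cochran's Q), nor that of Irs2 with a 24 h cosine (0.05). Tbc1d1 also differed between the knockouts under both readings of the PER2 sign, with a larger adjusted p of 0.00839 (Benjamini-Hochberg). That difference did not pass without ZT0 (larger adjusted p 0.213), and 13.3% of all shared genes passed the same test.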

How the results depend on the processing

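No paired analysis was possible because the tables hold comparisons and not values per library, and the library numbers in the titles run on across groups. For the same reason no single mouse could be left out, and each ZT was left out instead. Of the 10 genes 8 had a called RORA mean, and 4 with limma on the 6 fold changes. The RORA change with ZT was called for 5, for 8 with Q on z values and for 3 with a 24 h cosine. Over all genes that change was called for 1565, for 2617 on z values, 772 with a cosine and 970 without ZT4. The PER2 mean was called for 2 of the 10 genes, for 0 with limma, and for 1 with the length and GC trend removed, without ZT4, ZT8 or ZT12, or without both ZT4 and ZT12. Over all genes it was called for 2792, for 1092 with limma and 1379 without ZT4 and ZT12. PER2 change with ZT was called for 6 genes in all, for 36 with the trend removed, 2 without ZT0, 3 without ZT4 and 12 without ZT12. The 1 PER2 call among the 10 genes at a single ZT fell to 0 at an adjusted p under 0.01 and with the trend removed, and those over all genes from 2900 to 1272 and 1817. The difference between knockouts was called for 1 of the 10, for 7 by Stouffer z values and 0 without ZT0, and over all genes for 1518 and 3510 by Stouffer z values. The RORA weighted mean of Txnip, at -0.000699, turned positive, uncalled, with the trend removed (0.00221) and without ZT0 (0.0293). It was also positive, uncalled, without ZT8 (0.0226) and without ZT0 and ZT20 (0.0161). For limma and Stouffer's sum the value set beside it is the unweighted mean, 0.00591, which was positive from the start. Those settings too count below as a changed direction. The PER2 mean of Irs2 turned to -0.032 without ZT8, also uncalled. The causes were not tested. For single genes, direction and side of the threshold held in 91 of 110 RORA means, 101 of 110 RORA changes, 102 of 110 PER2 means, 110 of 110 PER2 changes and 83 of 90 differences. Depth per library is unknown, and PER2 errors of the 10 genes, at 0.0967 to 0.37, stand beside RORA errors of 0.0265 to 0.125. The RORA errors were deposited and the PER2 errors derived, so they are not of the same kind.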
